A study of Mus musculus with 8 samples.

Results

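Livers of mice given leptin at 12.5 ng/hr were compared with livers of mice given 0 ng/hr. The arrays were picked by the dose in their titles, which gave 2 arrays at 12.5 ng/hr (replicates 4 and 5) and 3 at 0 ng/hr (replicates 1, 2 and 3, the controls), 5 of the 8 arrays in the series. All were liver of adult males of the ob/ob strain named in the series title, and dosing lasted 12 days in every group, the controls included. The remaining 3 arrays, at 25 ng/hr (replicates 6, 7 and 8), were used to set the middle dose against the higher one. The agent field of the labels names leptin for the controls and no treatment for the 25 ng/hr arrays, while the title, source and dose fields give 1 and the same grouping, which was used here. The sources used here state neither the age in weeks, nor the route, nor what the controls received in place of leptin. Nothing in the labels says that the arrays came from separate animals, so the p-values reflect array-to-array spread, which may be technical.

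Leptin is a hormone of fat cells that acts through a cytokine receptor and JAK-STAT signalling, and ob/ob mice make no functional leptin. Without it they overeat, become obese and insulin resistant, and store fat in the liver. The liver holds hepatocytes, which carry out its metabolism, and smaller populations of Kupffer cells and other macrophages, which take up debris and present antigen on MHC class II, and stellate cells, which store retinol and make collagen. In bulk tissue, fewer cells of a type and less RNA per cell cannot be told apart.

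Signals are given as background-corrected, quantile-normalized log2 values, called log2 signal below. A total of 10141 features (1 probe per gene, above background on at least 2 arrays) was tested with limma in 1 fit of all 8 arrays, and p-values were adjusted by Benjamini and Hochberg's method, with 0.05 as the limit. Each array had 12094 to 12783 of its 25697 probes above background (47.1% to 49.7%), and its mean raw intensity was 456 to 532. Hepatocyte genes such as Ttr and Ahsg were above background on all arrays. The pair of arrays at 12.5 ng/hr correlated with r = 0.993 across features, and 34 features differed by more than 2-fold between them, against 72 to 156 in pairs of controls and 43 to 109 in pairs at 25 ng/hr. Control replicate 1 stood apart from the rest: the smooth muscle gene Acta2 had a log2 signal of 12.09 there and 7.29 to 9.05 on the other 7 arrays, and the fat cell gene Adipoq 6.77 against 4.37 to 5.06. Results are therefore also given without it where that matters. Arrays of 1 group sat next to each other on the same chip, so chip position and dose cannot be told apart.

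No feature passed the adjusted threshold in 12.5 minus 0 ng/hr (0% of 10141), and the smallest adjusted p by limma was 0.0818, shared by 10 genes, among them Ly86, Capn6, Kctd12, Trim30a, Aqp8, Ifit3, Parp14, Adamts2 and H2-DMa. At an unadjusted p under 0.05 there were 1166 features (11.5%), 666 higher at 12.5 ng/hr (6.57%) and 500 lower (4.93%). Under other settings of the same fit the adjusted count was between 0 and 10. In simulated data of this design, a log2 change of 1 was called for 73.1% of features that carried it, and one of 0.5 for 11.9%. That simulation changed 200 features and used independent noise with no outlying array, so the shares in these data may differ. An exact permutation test of 2 against 3 arrays has only 10 splits. Its two-sided p, taken as double the smaller tail, cannot go below 0.2, so single genes were not tested that way. In 1513 features both 12.5 ng/hr arrays lay above all controls (14.9%), and in 1409 below all of them (13.9%). Only 32 features lay above the controls without overlap, with an unadjusted p under 0.05 and by more than 2-fold (0.316%), and 11 lay below by the same rule (0.108%). The groups of genes named below are described by such counts and by medians, and no gene in this comparison is called changed.

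Promoters of MHC class II and interferon-stimulated genes are shown because several members lay above the controls and the known control elements can be searched for in the sequence. MHC class II genes carry a conserved element, the Y box, read by the factor NF-Y, and many interferon-stimulated genes carry an interferon-stimulated response element. Each line gives the 250 bases before the start annotated by RefSeq on GRCm38.p6, read 5′ to 3′ on the strand of the gene, and none of it lies in the annotated transcript. Capitals in the first 3 mark the Y box core GATTGG, or CCAATC where it lies on the other strand.
H2-Aa (chr17:34287824-34288073, minus strand): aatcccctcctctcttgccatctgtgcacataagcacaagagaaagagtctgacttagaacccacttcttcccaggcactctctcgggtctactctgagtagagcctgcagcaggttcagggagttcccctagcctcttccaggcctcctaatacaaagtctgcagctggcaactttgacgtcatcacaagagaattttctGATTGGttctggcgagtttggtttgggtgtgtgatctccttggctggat
H2-Eb1 (chr17:34305617-34305866, plus strand): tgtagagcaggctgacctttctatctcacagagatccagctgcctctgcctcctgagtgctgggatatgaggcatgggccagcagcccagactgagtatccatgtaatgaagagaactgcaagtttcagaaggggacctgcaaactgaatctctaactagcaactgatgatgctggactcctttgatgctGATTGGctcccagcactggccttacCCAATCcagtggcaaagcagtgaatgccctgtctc
H2-DMb1 (chr17:34152941-34153190, plus strand): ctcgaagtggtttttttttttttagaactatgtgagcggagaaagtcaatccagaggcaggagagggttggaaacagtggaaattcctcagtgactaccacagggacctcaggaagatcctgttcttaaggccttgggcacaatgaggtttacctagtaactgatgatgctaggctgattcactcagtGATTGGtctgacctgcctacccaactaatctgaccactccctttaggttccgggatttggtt
The core starts 49, 60 and 62 bases before the start in H2-Aa, H2-Eb1 and H2-DMb1, and H2-Eb1 has a second copy at 35 bases. Of the 4 tested MHC class II genes with a promoter entry, all 4 hold the core in at least 1 annotated promoter (H2-DMa only at its second annotated start, 199 bases before it), against 16.6% of 27025 genes and 21.7% of 7860 tested features with an entry. The core was chosen after these sequences had been looked at; the longer form CTGATTGG is in 2 of the 4, in 4.43% of genes and in 5.81% of tested features. Capitals in the next 2 mark the core of that response element, GAAA and again GAAA after any 2 bases (TTTC in place of GAAA on the other strand), searched on both strands like the Y box.
Ifit3 (chr19:34583279-34583528, plus strand): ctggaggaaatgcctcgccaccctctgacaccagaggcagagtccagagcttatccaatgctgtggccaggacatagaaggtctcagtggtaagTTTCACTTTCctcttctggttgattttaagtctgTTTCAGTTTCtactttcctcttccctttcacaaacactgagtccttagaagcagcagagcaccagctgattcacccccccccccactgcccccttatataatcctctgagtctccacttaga
Trim30a (chr7:104465194-104465443, minus strand): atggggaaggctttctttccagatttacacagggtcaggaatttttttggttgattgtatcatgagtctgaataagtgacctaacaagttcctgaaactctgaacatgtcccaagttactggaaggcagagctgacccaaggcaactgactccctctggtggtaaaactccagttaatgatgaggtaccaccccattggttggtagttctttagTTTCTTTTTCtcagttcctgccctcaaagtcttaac
Ifit3 holds 2 matches, at 156 and 122 bases before its start, and Trim30a 1 match at 36 bases. The other annotated start of Trim30a, not printed, holds none. Among tested interferon-stimulated genes with an entry, 9 of 17 hold a match (52.9%), against 3.46% of all 27025 genes and 3.31% of tested features. All promoters printed here hold a match. Oasl2 and Irf7, which also lay above the controls, hold none. A match describes the letters only, and binding was not measured.

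MHC class II genes had the highest median of the 37 lists described. All 6 members of the dendritic cell and class II list that were tested, which were above background on all 8 arrays, lay above every control on both 12.5 ng/hr arrays, beside 14.9% of all features. Their median log2 difference was 1.11, and 1.07 without control replicate 1, against 0.00 over all features. H2-DMa, a subunit of the chaperone that loads peptide onto class II molecules, had log2 signals of 6.33, 6.62 and 6.17 in the controls and 7.45 and 7.50 at 12.5 ng/hr. It was 2.15-fold higher, a log2 difference of 1.11 ± 0.16 (SE, adjusted p = 0.0818 by limma), and both leptin arrays lay above all controls. H2-Ab1, a chain of the class II molecule itself, read 8.60, 9.14 and 8.59 in the controls against 10.27 and 9.97. The log2 difference of 1.34 ± 0.27 had an adjusted p of 0.16, and the authors' deposited table gives a ratio of 2.39 between its group means. Its partner chain H2-Aa (7.27, 7.79 and 7.02 against 8.67 and 8.58) and the invariant chain Cd74 (9.16, 9.57 and 8.96 against 10.31 and 10.33) were separated in the same way. In each of these genes control replicate 2 was the highest control and still lay below both leptin arrays. The class II transactivator Ciita and the dendritic cell markers Flt3, Clec9a, Xcr1, Cd209a and Ccr7 did not reach the detection filter. Over the tested class II genes, the summed level on a linear scale was 1327 to 1985 in the controls and 3386 to 3689 at 12.5 ng/hr.

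Macrophage genes lay above the controls as a group. Of 20 tested members, 17 were higher at an unadjusted p under 0.05 (6.57% of all features) and none lower. Without overlap 16 were higher (14.9% of all features), and the median log2 difference was 0.58. Ly86, which pairs with the receptor CD180 on macrophages and B cells, had the smallest p of any gene: 6.31, 6.39 and 6.25 in the controls against 7.14 and 7.37. That is 1.92-fold, a log2 difference of 0.94 ± 0.11 (SE, adjusted p = 0.0818 by limma). Csf1r, the receptor that macrophages need for survival, read 7.30, 7.24 and 7.04 against 7.85 and 7.71, a log2 difference of 0.59 ± 0.11 (adjusted p = 0.145). Aif1 and Vsig4, both expressed by Kupffer cells, differed by 0.67 and 0.51. The resident Kupffer cell genes Timd4 (-0.07), Cd163 (0.02) and Marco (0.17) were the 3 members with an unadjusted p above 0.05. The summed level of the tested list was 6327 to 7074 in the controls, 10019 to 10245 at 12.5 ng/hr and 8801 to 10602 at 25 ng/hr, so it was above all controls at both doses. Its part in the class II and interferon results was not tested.

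Few genes of other white blood cells reached the detection filter. Of 14 T and NK cell genes, 5 were tested, and Ccl5, a chemokine, was the 1 with an unadjusted p under 0.05 (log2 difference 0.79, adjusted p = 0.29). Of these 5, 4 were not above background on every array. The summed level of the 5 was 130 to 158 in the controls and 174 to 185 at 12.5 ng/hr. Without overlap 2 of them were higher (14.9% of all features). Of 10 B cell genes 3 were tested, with differences of 0.02 to 0.25, 2 of them without overlap, and Ms4a1 and Cd79a did not reach the filter. The summed level of the 3 tested genes was 91.7 to 93.4 in the controls and 101 to 105 at 12.5 ng/hr. Of these 3, 2 were not above background on every array, so these levels are near the floor. Neutrophil and monocyte genes had 6 tested members and a median of 0.04, which ranged from -0.12 without replicate 5 to 0.31 without replicate 4 and was -0.02 without replicate 1, with S100a8 and S100a9 overlapping between the groups. Hepatocyte genes had a median of -0.04 over 11 tested. Only Hnf4a, a transcription factor of hepatocyte identity, had an unadjusted p under 0.05, beside 4.93% of all features lower by that rule. It read 11.83, 11.66 and 11.80 against 11.32 and 11.49 (adjusted p = 0.343). Without overlap 3 of the 11 were lower (13.9% of all features) and 1 was higher (14.9%).

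**Figure D1:**
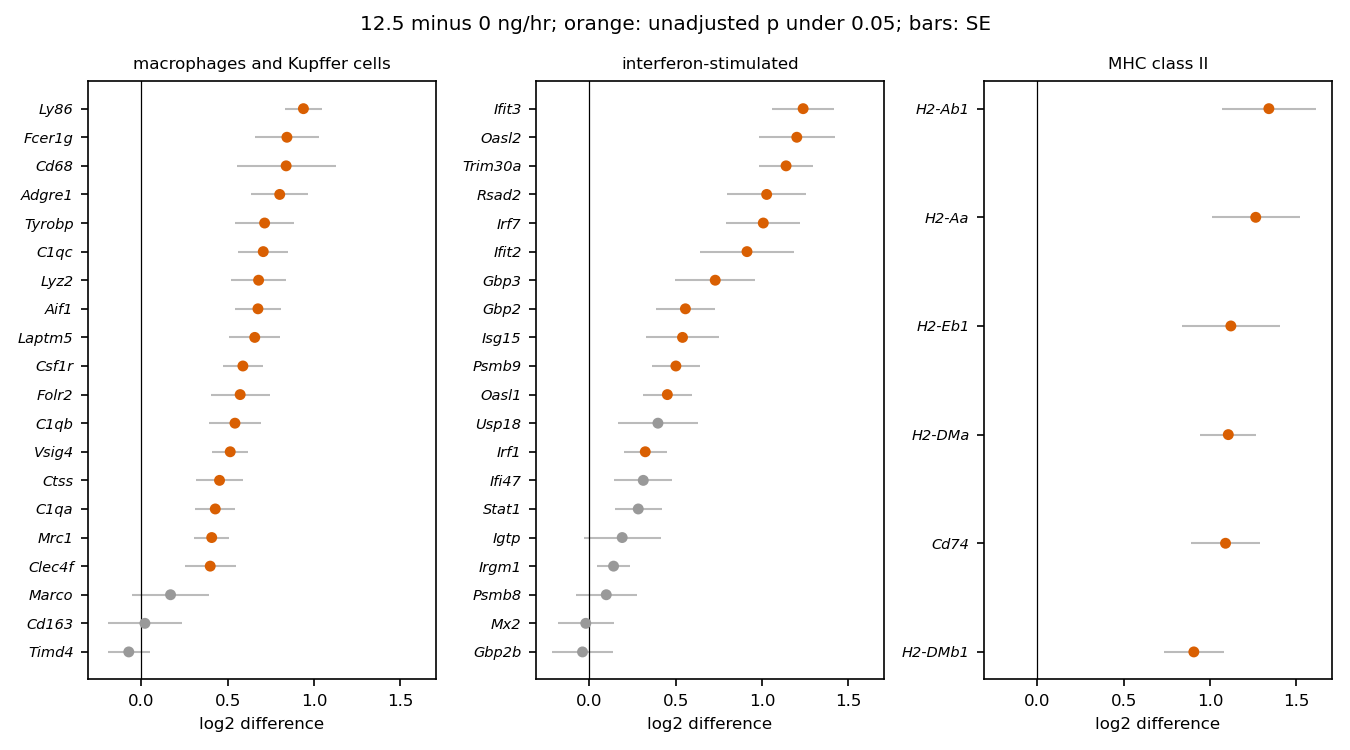
Log2 difference of 12.5 minus 0 ng/hr (points) with its standard error (bars) for each tested member of 3 lists, with 2 arrays against 3. Orange points have an unadjusted p under 0.05: 17 of 20 macrophage genes, 12 of 20 interferon-stimulated genes and 6 of 6 class II genes.

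Interferon-stimulated genes showed 12 of 20 tested members higher at an unadjusted p under 0.05 (6.57% of all features) and none lower. Without overlap 14 were higher (14.9% of all features), and the median log2 difference was 0.48. The list holds 4 tested members that were not above background on every array. Ifit3, which binds other IFIT proteins that hold viral RNA, read 7.50, 7.96 and 7.32 in the controls against 8.92 and 8.75. It was 2.36-fold higher (1.24 ± 0.18, SE, adjusted p = 0.0818 by limma), and its promoter with 2 matches to the response element is shown above. Trim30a was not above background in any control and was above it on both 12.5 ng/hr arrays (5.59 and 5.89), at least 1.84-fold higher. Parp14, an ADP-ribosyltransferase induced by interferon, is not in the list and was named for its small p in these data. It read 7.79, 7.86 and 7.77 against 8.54 and 8.44, a tight separation (0.68 ± 0.10, adjusted p = 0.0818). Within the list, Oasl2 (log2 difference 1.20) and the interferon regulatory factor Irf7 (1.01) lay above all controls as well. Of the 20 tested members, 6 overlapped with the controls. Among them, the guanylate binding protein Gbp2b was not above background on either 12.5 ng/hr array and read 6.17, 6.40 and 6.39 at 25 ng/hr. It rose at least 2.74-fold between the doses (adjusted p = 0.00813), and passed the detection filter mainly through the 25 ng/hr arrays. Its promoter also holds a match. Mx2 (-0.02) and Psmb8 (0.10) were near the controls, so members of the list differed among themselves. In MHC class I presentation, 1 of 12 tested genes, the peptide transporter Tap1, had an unadjusted p under 0.05 (0.51, adjusted p = 0.245).

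**Figure D2:**
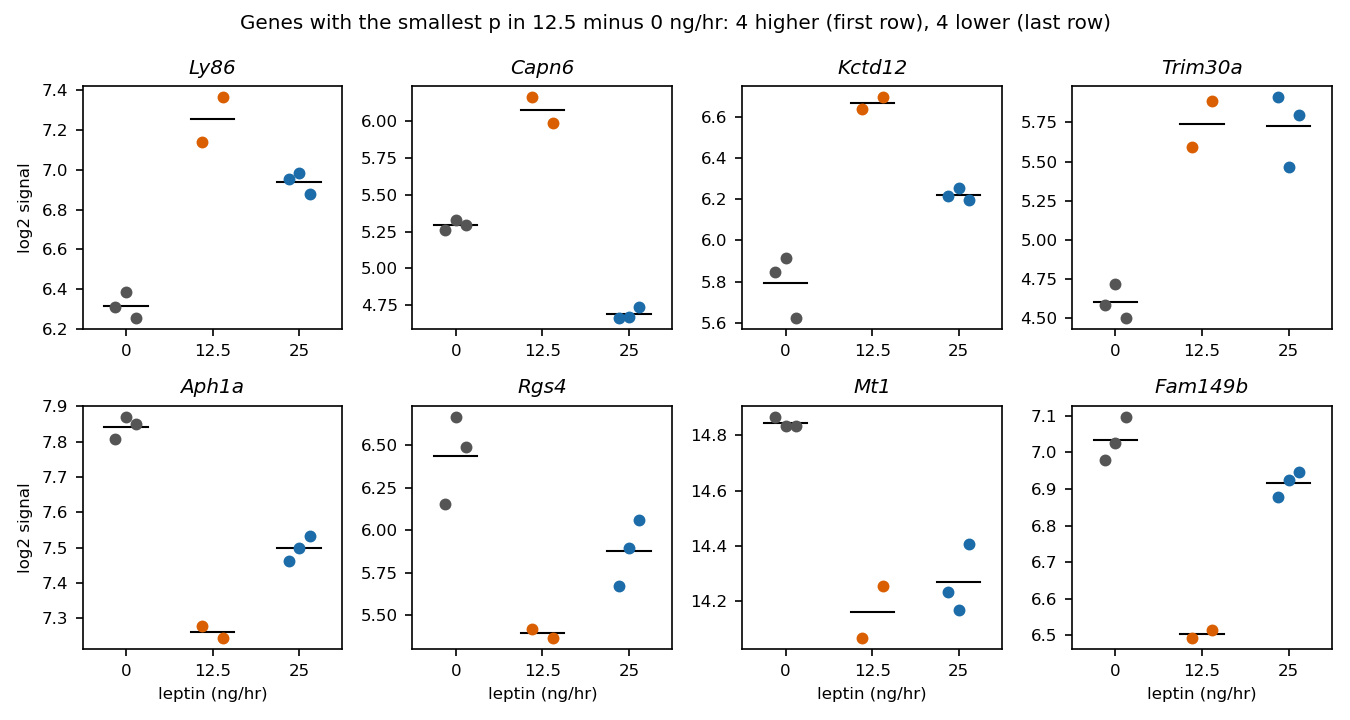
Log2 signal of each array (points) and group mean (lines) for the 4 genes with the smallest p above the controls and the 4 below, by dose. In all 8 panels both 12.5 ng/hr arrays lie outside the range of the controls, and none passed the adjusted threshold in 12.5 minus 0 ng/hr.

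Leading genes outside these lists belonged to several functions. Aqp8, a water channel of the hepatocyte, read 10.43, 10.64 and 10.55 in the controls against 11.41 and 11.29 (1.75-fold, adjusted p = 0.0818 by limma). Kctd12, a partner of GABA-B receptors in the brain, read 5.85, 5.91 and 5.62 against 6.64 and 6.70. Both genes lay between the 12.5 ng/hr and control arrays at 25 ng/hr. Pltp, which transfers phospholipid between lipoproteins, read 8.42, 9.04 and 8.99 against 10.46 and 9.94 (1.38 ± 0.25, adjusted p = 0.142). Nrep had the largest difference above the controls by the 2-fold rule, 3.21-fold, with 8.30, 8.16 and 8.12 against 10.52 and 9.24, and the arrays at 12.5 ng/hr were far apart (adjusted p = 0.213).

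Below the controls, the smallest p belonged to Aph1a, a subunit of gamma-secretase. It read 7.81, 7.87 and 7.85 against 7.28 and 7.24 (-0.58 ± 0.09, adjusted p = 0.128 by limma). Rgs4, which shortens G protein signalling, read 6.16, 6.67 and 6.49 against 5.42 and 5.37. In both genes the 25 ng/hr arrays lay between the other groups. Rcan1, an inhibitor of calcineurin, read 11.38, 9.99 and 10.54 against 9.20 and 9.38 (-1.34 ± 0.39, adjusted p = 0.258), and its difference was -0.97 without control replicate 1. The repressor Bcl6 read 9.90, 9.19 and 10.30 against 8.44 and 8.64, and 9.90 to 11.50 at 25 ng/hr, so the lowest arrays were those of the middle dose.

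Several collagen and matrix genes lay above the controls at 12.5 ng/hr and fell from 12.5 to 25 ng/hr. Of 21 tested genes of the extracellular matrix and its enzymes, 11 were higher than the controls at an unadjusted p under 0.05 (6.57% of all features). None was lower by that rule, and the median log2 difference was 0.34. Of the 21 genes, 7 were not above background on every array. Col1a1, a chain of type I collagen, read 5.58, 5.71 and 4.59 in the controls and 6.80 and 6.63 at 12.5 ng/hr. It was above background on 2 of the 3 controls, not on replicate 3 (4.59), and on no array at 25 ng/hr. Its log2 difference was 1.42 ± 0.29 against the controls (adjusted p = 0.154), and 0.73 to 1.51 under other settings of the fit. Col1a1 fell at least 3.51-fold from 12.5 to 25 ng/hr (adjusted p = 0.0245). Col3a1, type III collagen, read 5.38, 5.37 and 5.18, then 6.27 and 6.21, then 4.73, 5.14 and 4.53. It fell by 1.44 on the log2 scale between the doses as fitted (adjusted p = 0.0168), with 1 of the 3 arrays at 25 ng/hr above background. Adamts2, which trims the ends of procollagen, read 7.98, 8.04 and 7.79 in the controls, 8.91 and 8.71 at 12.5 ng/hr and 7.69, 7.58 and 7.44 at 25 ng/hr. The middle dose was thus the highest on every array, 0.87 ± 0.13 above the controls (adjusted p = 0.0818), with a fall of 1.24 to the higher dose (adjusted p = 0.00813).

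From 12.5 to 25 ng/hr, 43 features passed the adjusted threshold (0.424%), 12 higher (0.118%) and 31 lower (0.306%). Of the 21 matrix genes 8 fell: Col1a1, Col3a1, Col6a1, the proteoglycans Bgn and Lum, the collagen-binding Sparc, the protease Mmp2 and the crosslinking enzyme Loxl1. The falls were 0.70 for Bgn to 2.13 for Col1a1 as fitted on the log2 scale. Stellate cell and fibroblast genes had 5 of 19 members lower, all 5 also in the matrix list, with which it shares 8. Ctsk, a collagen-degrading protease, fell by 1.17 (adjusted p = 0.0168). The pericyte gene Rgs5 lay below the controls on both 12.5 ng/hr arrays (-0.99, unadjusted p = 0.0139, adjusted p = 0.313). The count depended on single arrays: without replicate 4 the count of 43 became 0, without replicate 5 it became 1, and without replicates 6, 7 or 8 it was 12, 12 and 13.

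**Figure D3:**
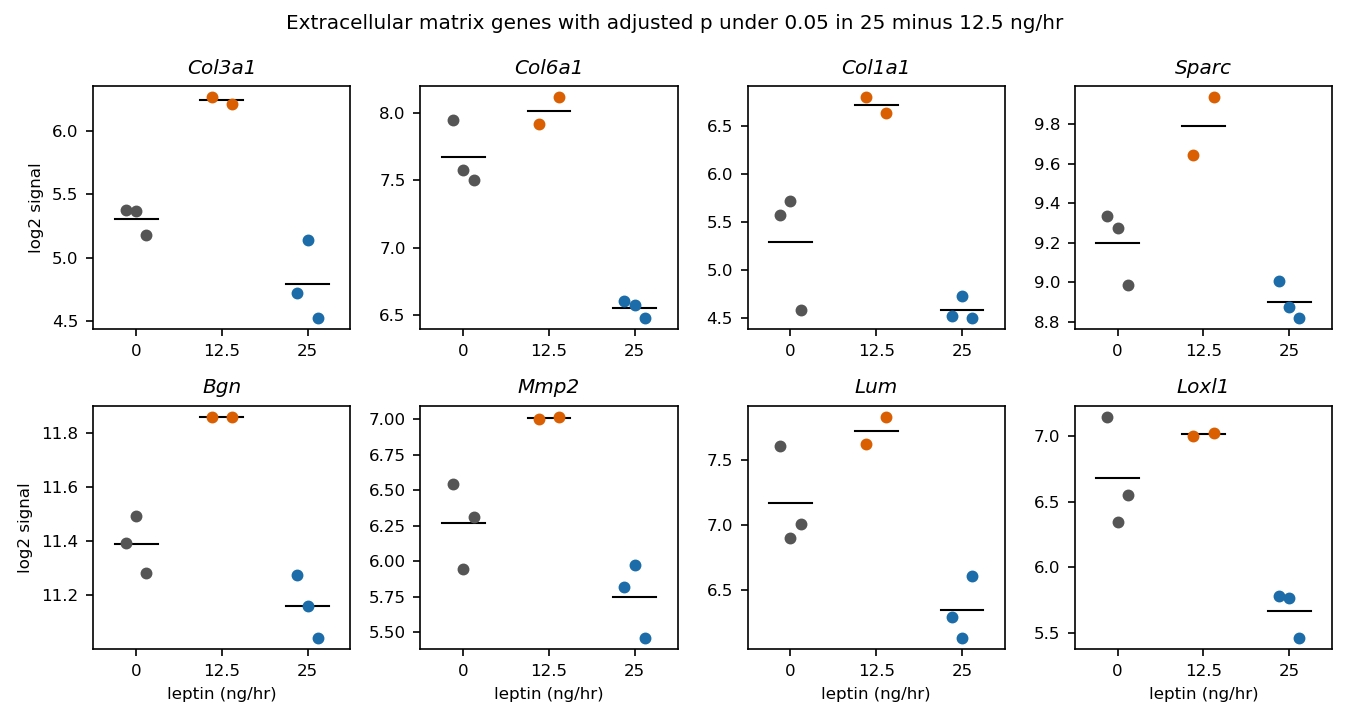
Log2 signal of each array (points) and group mean (lines) by dose for the 8 matrix genes that fell from 12.5 to 25 ng/hr at an adjusted p under 0.05. In every panel both 12.5 ng/hr arrays lie above all 3 arrays at 25 ng/hr, and Col1a1 was above background on none of those 3.

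The departure of the middle dose from the straight line between 0 and 25 ng/hr was tested directly. Between 0 and 25 ng/hr themselves, 92 features passed the adjusted threshold (0.907%), 65 higher (0.641%) and 27 lower (0.266%). The departure passed for 4 features (0.0394%), with 3 above the line (0.0296%) and 1 below (0.00986%). Capn6, a calpain without protease activity, read 5.26, 5.33 and 5.29, then 6.16 and 5.98, and was not above background at 25 ng/hr. It lay 1.08 ± 0.09 above the line (SE, adjusted p = 0.00892 by limma), but with 25 ng/hr below background the size is uncertain. Its fall from 12.5 to 25 ng/hr was at least 2.25-fold, beside 2.61-fold as fitted. Adamts2 (1.05 ± 0.11, adjusted p = 0.0242) and Ccdc3 (1.06 ± 0.11, adjusted p = 0.0242), a secreted protein of fat and endothelial cells, were the others above the line. The histone H4 gene H4c17 had a departure of -1.0 on the log2 scale, with 6.28, 6.46 and 6.25, then 5.80 and 5.54, then 6.92, 6.98 and 7.13 (adjusted p = 0.0278). Further H4 genes, H4c12 and H4c11, were lowest at 12.5 ng/hr as well, but their probes may cross-hybridise, since histone genes are nearly identical. Of 21 matrix genes, 15 lay above the line at an unadjusted p under 0.05 (6.92% of all features) and 0 below it (4.46%). Without replicate 4, 5 or 6 no feature passed, without replicate 8 there was 1, without replicates 3 or 7 there were 2, and without replicates 1 or 2 there were 14 and 17. These comparisons share the 12.5 ng/hr arrays with 12.5 minus 0 ng/hr and are not independent of it.

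Genes of lipid-associated macrophages and tissue injury had medians of opposite sign at the 2 doses. The list's median was 0.90 over 10 tested at 12.5 ng/hr and -0.39 at 25 ng/hr, both against the same controls, while the macrophage list stood at 0.58 and 0.57. Of these 10 genes, 3 were not above background on every array. Their summed level was 17218 to 19472 in the controls and 20917 to 22899 at 12.5 ng/hr. At 25 ng/hr it was 16158 to 20148, which overlapped the controls. Spp1, osteopontin, read 9.67, 10.12 and 9.10 in the controls, 10.57 and 10.77 at 12.5 ng/hr and 9.06, 9.04 and 9.49 at 25 ng/hr. Trem2, a lipid receptor of macrophages, read 4.94, 6.18 and 5.67, then 6.32 and 6.68, with 1 of 3 arrays above background at 25 ng/hr. For Spp1 and Trem2 the differences from the controls had adjusted p of 0.229 and 0.397 at 12.5 ng/hr and of 0.395 and 0.380 at 25 ng/hr. From 12.5 to 25 ng/hr the adjusted p were 0.0667 and 0.136. The median of this list fell to 0.55 without control replicate 1 and to 0.57 without replicate 5.

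In sterol synthesis, 18 of 19 tested genes had a difference above 0, beside 50.6% of all features. Without overlap 7 were higher (14.9% of all features), and 4 were higher at an unadjusted p under 0.05 (6.57%). The largest was Fdps, farnesyl diphosphate synthase, with 11.77, 12.69 and 12.28 against 13.10 and 13.21 (0.90 ± 0.26, adjusted p = 0.258). Sqle, squalene epoxidase, differed by 0.76 ± 0.29 (adjusted p = 0.372). In both genes control replicate 1 was the lowest of the 5 arrays, and the list's median of 0.33 became 0.19 without it. Insig2, which holds the sterol sensor SCAP in the endoplasmic reticulum, lay below the controls, with 12.53, 12.48 and 12.48 against 11.81 and 12.05 (-0.56 ± 0.12, adjusted p = 0.178).

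Fatty acid synthesis had 4 of 20 tested genes higher at an unadjusted p under 0.05 (6.57% of all features). Without overlap 7 were higher (14.9% of all features), and the median was 0.14. Srebf1, the transcription factor that drives the pathway, read 7.83, 8.04 and 7.79 against 8.69 and 8.54, above every control (0.72 ± 0.16, adjusted p = 0.191). The desaturases Fads2 (0.70) and Fads1 (0.51) and the acetyl-CoA synthetase Acss2 (0.51) were the others. Scd1, the stearoyl-CoA desaturase, differed by 0.14 ± 0.17, and Fasn, fatty acid synthase, by 0.04 ± 0.27. The list's median ranged from 0.04 without control replicate 1 to 0.22 without replicate 4, and was 0.05 without replicate 3 and 0.06 without replicate 5. G0s2, an inhibitor of the lipase ATGL, read 10.95 to 11.29 in the controls against 11.91 and 11.63 (0.69 ± 0.14, adjusted p = 0.163).

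**Figure D4:**
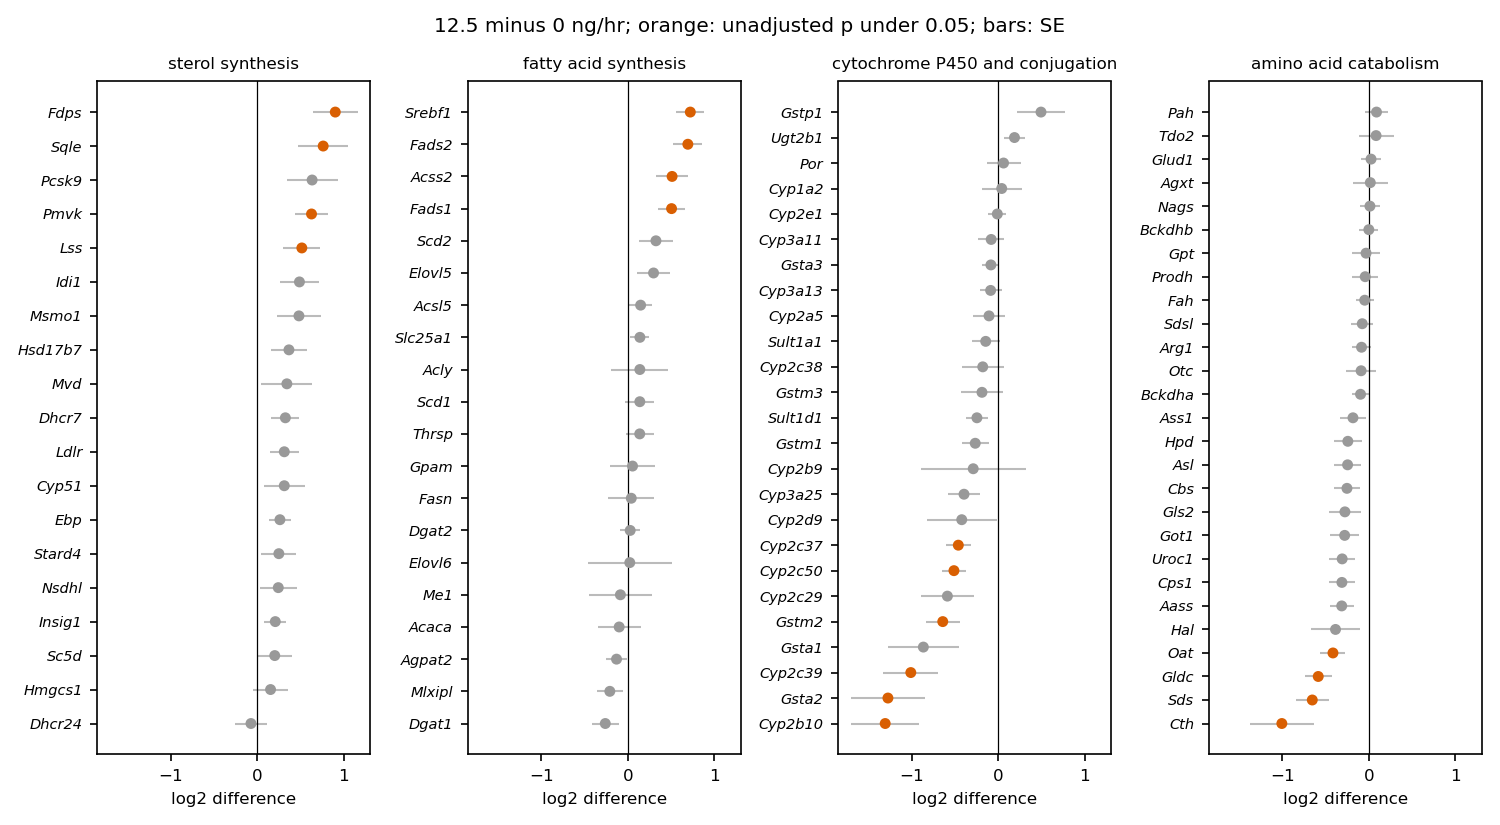
Log2 difference of 12.5 minus 0 ng/hr (points) with its standard error (bars) for each tested member of 4 metabolic lists, with 2 arrays against 3. Orange points have an unadjusted p under 0.05: 4 sterol and 4 fatty acid synthesis genes to the right, 6 P450 or conjugation genes and 4 amino acid genes to the left.

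Drug metabolism and amino acid genes had medians below 0. Of 25 tested cytochrome P450 and conjugation genes, 6 were lower at an unadjusted p under 0.05 (4.93% of all features) and none higher, 10 were lower without overlap (13.9% of all features), and the median was -0.25, or -0.17 without control replicate 1. Cyp2b10, a target of the nuclear receptor CAR, read 11.21, 10.98 and 11.23 against 9.45 and 10.21. The glutathione transferase Gsta2 read 11.97, 11.26 and 11.78 against 9.81 and 10.98. Both were more than 2-fold lower, at 2.48-fold and 2.42-fold, but the 12.5 ng/hr arrays differed by more than the controls did, and the adjusted p were 0.276 and 0.333. Of 27 genes of amino acid catabolism and the urea cycle, 4 were lower at an unadjusted p under 0.05 and 11 without overlap. The median was -0.18, or -0.15 without control replicate 1 and -0.30 without control replicate 2. Gldc, of the glycine cleavage system, read 13.03, 12.95 and 13.11 against 12.24 and 12.65, and Cth, cystathionine gamma-lyase, 11.89, 10.73 and 11.65 against 10.24 and 10.60. In gluconeogenesis 11 of 13 genes had a difference below 0, 5 were lower without overlap and 3 were lower at an unadjusted p under 0.05, namely Pck1 (-0.63 ± 0.21, adjusted p = 0.313), G6pc (-0.49, adjusted p = 0.394) and the transcription factor Foxo1 (-0.28, adjusted p = 0.428).

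Both metallothionein genes tested, whose proteins bind zinc and copper, lay below the controls. Mt1 read 14.87, 14.83 and 14.83 against 14.07 and 14.25, a wide gap beside the spread of the controls (-0.69 ± 0.11, adjusted p = 0.134). Mt2 read 7.74, 7.43 and 7.93 against 5.99 and 7.17, with replicate 4 far below replicate 5 (-1.12 ± 0.30, adjusted p = 0.236). The zinc exporter Slc30a1 (-0.43) and its relative Slc30a10 (-0.77), which exports manganese, also lay below. Of 18 genes for metallothioneins, zinc and oxidative stress, 6 were lower at an unadjusted p under 0.05 (4.93% of all features). Without overlap 9 were lower (13.9% of all features), and the median was -0.16, or -0.10 without control replicate 2.

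Among 14 tested genes of leptin and JAK-STAT signalling, 3 were higher without overlap and 3 lower. Over all features these shares were 14.9% and 13.9%. The receptor gene Lepr was above background on 2 of 3 controls and on no array at either leptin dose, with log2 signals from 4.43 to 5.08 over all arrays. Of the 14, Socs2 and Cish, both feedback inhibitors induced by STAT5, were the 2 higher at an unadjusted p under 0.05 (6.57% of all features). Socs2 read 8.0, 7.06 and 7.92 against 9.11 and 8.22 (adjusted p = 0.345), and Cish 7.53, 7.75 and 6.83 against 9.19 and 7.77 (adjusted p = 0.348). In both, replicate 4 was high and replicate 5 was close to the highest control. Stat3, the factor that the leptin receptor activates, read 9.64, 10.40 and 9.90 against 9.41 and 9.63, just below all controls on both leptin arrays, with an adjusted p of 0.439.

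Liver genes that differ between the sexes are in large part under growth hormone control. Of 15 tested male-biased genes 5 were higher at an unadjusted p under 0.05 (6.57% of all features) and 10 without overlap (14.9%). Their medians were 0.60 at 12.5 ng/hr and 1.34 at 25 ng/hr against the same controls. The complement gene C8a read 8.47, 8.50 and 8.87, then 9.81 and 9.41, then 10.87, 10.49 and 9.57, so the doses overlapped. Of 11 female-biased genes 1 was lower at an unadjusted p under 0.05 (4.93% of all features), Cyp2b10, which the P450 list also holds. Without overlap 4 of the 11 were lower (13.9% of all features). Their median was -0.36 at 12.5 ng/hr and -0.94 at 25 ng/hr.

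Some genes differed so much between the arrays at 12.5 ng/hr that the group mean says little. Hamp, which encodes the iron hormone hepcidin, read 10.63 in replicate 4 and 13.05 in replicate 5, beside 12.85 to 13.19 in the controls. Igfbp2, a binding protein for insulin-like growth factors, read 8.09 and 6.17, beside 7.27, 5.47 and 6.23 in the controls and 8.63 to 9.73 at 25 ng/hr. Its log2 difference of 0.80 ± 0.63 (adjusted p = 0.683) turned to -0.16 without replicate 4. Cyp2b13 (9.95 and 11.94), Ly6d (7.51 and 9.15), Acnat2 (6.84 and 8.22), Igfbp5 (7.88 and 9.25) and the elongase Elovl6 (10.84 and 12.17) were each lower in replicate 4, and Cish was higher there.

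**Figure D5:**
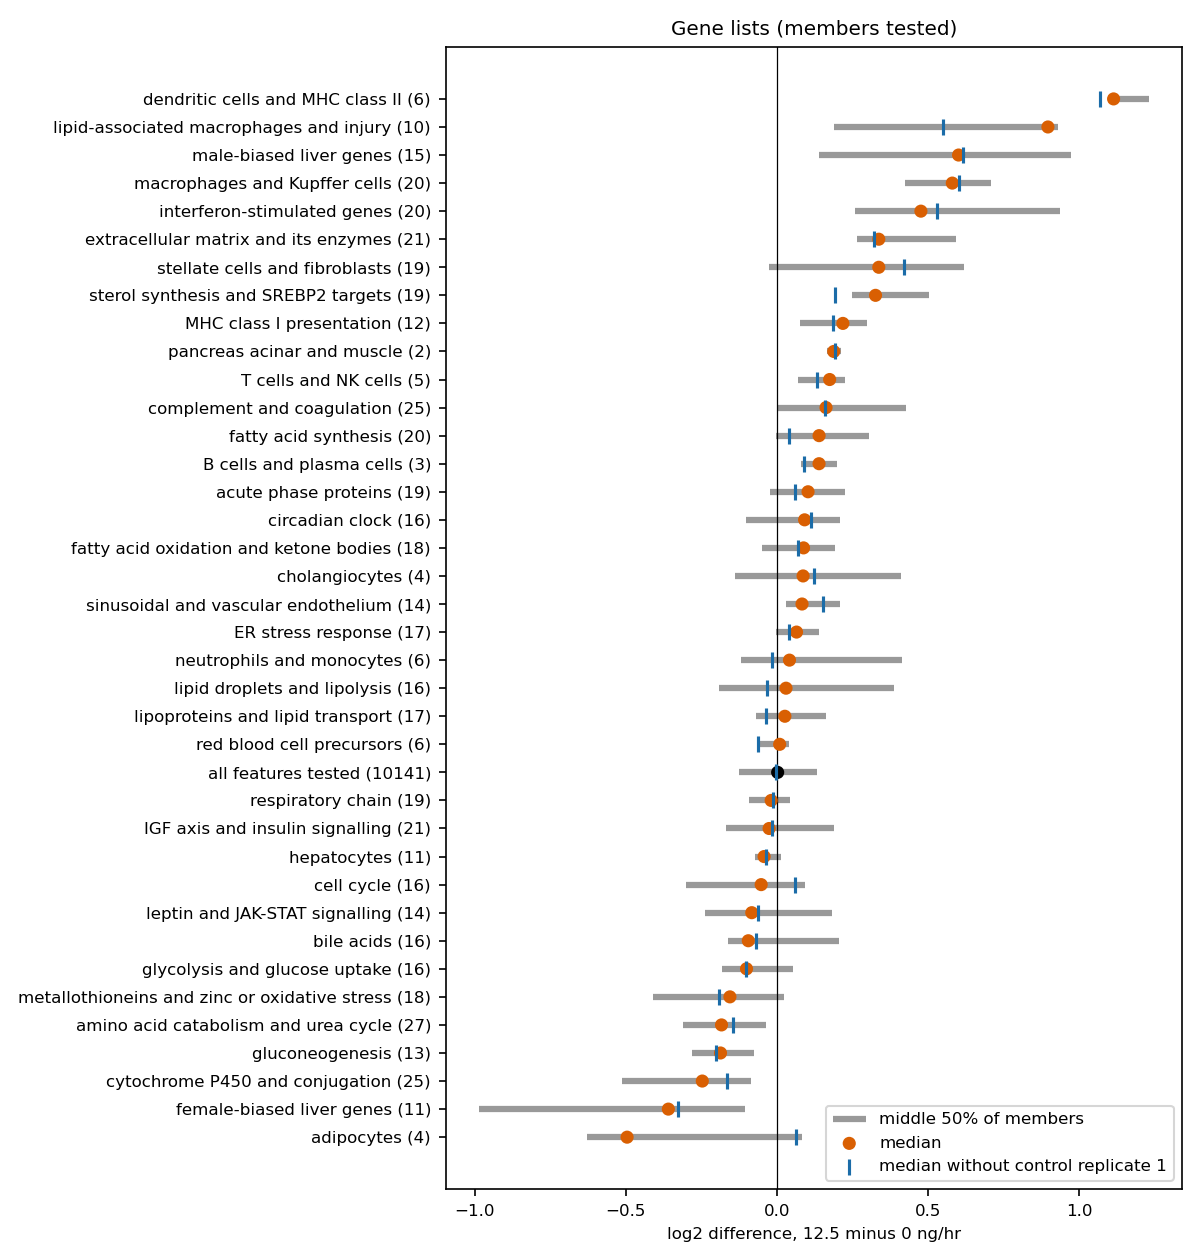
Median log2 difference of 12.5 minus 0 ng/hr over the tested members of each gene list (points), the middle 50% of members (bars) and the median without control replicate 1 (ticks), with the number tested in brackets. Class II genes stand highest at 1.11 and all 10141 features at 0.00, while the adipocyte list, with 4 tested, changes sign without control replicate 1.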

How the data were processed

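Total RNA was isolated with Trizol from flash-frozen liver, and biotinylated cRNA made with the Ambion MessageAmp kit was hybridised to 1 Illumina BeadChip, per the labels' protocols. Scanner software is not given in the sources used here. Per the file headers, the authors deposited an average bead intensity and a detection p-value for each of 25697 probes and 8 arrays. A second deposited table holds the intensities multiplied by 1 factor per array, group means and the ratio of those means. Its middle mean equals that of replicates 4 and 5, although its header names 3 arrays.

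From the raw intensities, limma 3.58.1 in R 4.3.3 was used for background correction with detection p-values (neqc, offset 16), quantile normalization and log2 values. Probes needed a detection p under 0.05 on at least 2 arrays (13760), and the brightest probe stood for a gene. Current symbols from a RefSeq table (GRCm38.p6, names only) covered 9811 of 10141 features. All 8 arrays entered 1 fit of 3 group means, with lmFit and eBayes, and the script was tested on simulated data with 200 changed features. A fold written "at least" sets the mean of one group against the lowest detected signal or the probe's own, whichever was higher. The number of arrays limits the precision.

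The named genes were the 15 on each side with the smallest p and no overlap, the 10 largest differences on each side, up to 4 per list, the 8 that differed most between the 12.5 ng/hr arrays, the 8 on each side with the smallest p for departure from the line, and Igfbp2, Lepr, Scd1, Srebf1, Pck1, Mt1 and Mt2. H2-Eb1, Timd4, Cd163, Marco, Mx2, Psmb8, Fasn, Acta2, Rgs5, Ttr, F11, Hc, Col6a1, Mmp2, Lum, Loxl1 and the list members that did not reach the detection filter were named after their values were seen. The members and lists were chosen with earlier results of these data known. 1 gene that the rule takes is not reported here.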

Additional observations from a re-analysis of the deposited data

How the results depend on the processing

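The count of features past an adjusted p of 0.05 in 12.5 minus 0 ng/hr went from 0 to 8 without background correction, 10 on the authors' scaled intensities and 7 with an intensity trend in the variance prior, and leaving out 1 array gave 0 to 2, the 2 coming without replicate 2. For 25 minus 12.5 ng/hr the count of 43 became 79, 110 and 78 under the same 3 settings, and 0 to 60 when 1 array was left out. For the departure from a straight line the count of 4 became 11 with median scaling, 24 without background correction, 26 on the authors' scaled intensities, 7 with detection on all 8 arrays, 12 with every detected probe, 20 with the trend and 9 with a robust prior, and 0 to 17 when 1 array was left out. For 25 minus 0 ng/hr the count of 92 became 35 with median scaling, 196, 188 and 207 under the first 3 settings and 32 with only these groups in the fit, and 0 to 131 when 1 array was left out. The cause of these shifts was not tested. Of 53 named genes in 12.5 minus 0 ng/hr, Igfbp2 alone changed sign, with -0.16 without replicate 4 and 1.76 without replicate 5. A fit of only the groups compared could not be made for the departure from a line. No paired analysis was possible because the groups share no replicate numbers. With 2 arrays at 12.5 ng/hr, leaving out either leaves 1, which is assumed to vary like the other groups.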

Other observations

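Complement and coagulation genes made by the liver included 6 of 25 tested that were higher at 12.5 ng/hr at an unadjusted p under 0.05 and 1 lower. Over all features these shares were 6.57% and 4.93%, and the list's median log2 difference was 0.16. Of the 6, C1qa, C1qb and C1qc are also in the macrophage list and C8a is in the male-biased list, which leaves F11 and Hc. F11, coagulation factor XI, differed by 0.82 and Hc, complement component C5, by 0.36, while Serpinc1, antithrombin, differed by -0.41. None passed an adjusted p of 0.05 by limma.

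In the remaining lists few genes had an unadjusted p under 0.05, beside 6.57% of all features higher and 4.93% lower. Fatty acid oxidation had 3 of 18 higher and none lower, and lipid droplets 3 of 16 higher and 1 lower. Glycolysis had 2 of 16 in each direction, the circadian clock 1 of 16 higher and 2 lower, and the respiratory chain 1 of 19 lower. The adipocyte list, with 4 genes tested, had a median of -0.50 that became 0.06 without control replicate 1, the array with the highest Adipoq and Lep signals.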
